A study of Mus musculus with 6 samples.

Results

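The ion channel genes expressed by HL-1, an immortal atrial muscle cell line of mouse tumour origin, were examined on 6 expression arrays. Every probe whose gene symbol starts with Kcn, Cacn, Scn and a digit, Hcn, Clcn or P2rx was taken, which gave 191 probes of 123 genes out of 25697 probes and 16593 genes. The rule used symbols and no measured value, but it was chosen with earlier results of these data known. Of the 3 groups, the first was left untreated, the next received o-HA, a 6-mer hyaluronan oligosaccharide, and the last received n-HA, native high molecular weight hyaluronan of 1000 kDa. Each group held 2 arrays, all cells were kept in Claycomb medium for about a day with or without hyaluronan, and o-HA and n-HA were given at different mass concentrations, so each is set against the untreated cells and not against the other. Both comparisons share the 2 untreated arrays. The labels do not say that the arrays of a group came from separate cultures, so the p-values measure the spread between these arrays, which may be technical. HL-1 is a single line, so the values hold for this line and need not hold for atrial muscle cells in general.

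Ion channels set the shape of the cardiac action potential. In heart muscle, sodium channels (Scn) give the upstroke, calcium channels (Cacn) carry the plateau current that triggers contraction, and a set of potassium channels (Kcn) ends the plateau and holds the resting potential. Pacemaker channels (Hcn) carry the inward current of diastole, chloride channels of the Clcn family serve the surface membrane and intracellular vesicles, and P2rx genes encode cation channels that ATP outside the cell opens.

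Upstream sequences are shown for the 3 genes on which the values below turn, namely P2rx1 and Cacnb2, each with a probe that read lower on every treated array, and Kcnh2, which was detected by a pair of probes on every array. They were read from RefSeq (GRCm38.p6), are the 250 bases before an annotated start and are written 5′ to 3′ along the gene's strand. Capitals mark a GC box (GGGCGG) or a GATA word (AGATAA), searched on both strands with the TATA box (TATAAA) and the M-CAT word (CATTCC), words that were chosen after sequences of the set had been seen. The windows lie at chr11:72998895-72999144 (plus strand) for P2rx1, chr5:24329592-24329841 (minus strand) for Kcnh2, and chr2:14604056-14604305 and chr2:14823842-14824091 (both plus strand) for the Cacnb2 starts.
P2rx1: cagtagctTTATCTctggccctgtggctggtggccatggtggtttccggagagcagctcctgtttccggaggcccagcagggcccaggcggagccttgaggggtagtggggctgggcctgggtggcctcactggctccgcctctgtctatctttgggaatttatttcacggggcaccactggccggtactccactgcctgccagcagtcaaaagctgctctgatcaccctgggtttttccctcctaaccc
Kcnh2: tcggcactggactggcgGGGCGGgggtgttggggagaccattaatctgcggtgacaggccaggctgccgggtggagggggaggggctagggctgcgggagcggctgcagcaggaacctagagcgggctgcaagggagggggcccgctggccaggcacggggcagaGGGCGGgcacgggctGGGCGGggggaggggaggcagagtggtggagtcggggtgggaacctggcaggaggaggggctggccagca
Cacnb2, upstream start: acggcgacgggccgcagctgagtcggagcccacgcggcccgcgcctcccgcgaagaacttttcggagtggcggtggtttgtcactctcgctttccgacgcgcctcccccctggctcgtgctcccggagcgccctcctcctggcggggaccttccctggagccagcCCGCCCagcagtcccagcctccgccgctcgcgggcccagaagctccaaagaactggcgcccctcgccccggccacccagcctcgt
Cacnb2, downstream start: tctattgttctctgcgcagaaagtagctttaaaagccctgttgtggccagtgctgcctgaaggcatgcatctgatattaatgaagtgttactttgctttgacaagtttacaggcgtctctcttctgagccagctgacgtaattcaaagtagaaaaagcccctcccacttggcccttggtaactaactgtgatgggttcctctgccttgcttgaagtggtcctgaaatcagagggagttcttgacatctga
The Kcnh2 window held 3 GC boxes at a GC content of 73.6%, while the P2rx1 window held a GATA word and no GC box. The upstream Cacnb2 window was 73.2% GC with 30 CpG and the downstream one 46.0% GC with 3. Of the 25 channel genes that were tested, 19 had an entry, with 29 windows, and 51.7% of these windows held a GC box, against 32.7% of all 32851 windows. A TATA box was found in 0 of the 29 windows and in 12.4% of all windows, a GATA word in 6.9% and 9.99%, and an M-CAT word in 3.45% and 12.6%. Channel genes detected on 0 arrays (65 genes, 82 windows) held a GC box in 45.1%, a TATA box in 4.88%, a GATA word in 3.66% and an M-CAT word in 20.7%. The other detected channel genes, which were not tested (11 genes, 20 windows), held a GC box in 6 windows (30.0%), a TATA box in 2, a GATA word in 1 and an M-CAT word in 2. These are letter matches, given as a description.

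The arrays detected between 4546 and 5763 probes each at a detection p under 0.05, and 23 to 29 of the 191 channel probes. The n-HA arrays detected the fewest probes in all, 4767 and 4546, against 5443 to 5763 on the others. Their mean intensities were also the lowest, 110.1 and 93.3 against 121.6 to 140.9. A probe that was not detected with n-HA is to be read beside this. Each probe's intensity was read from a median of 41 beads. Over the 6194 probes that were detected on at least 2 arrays, n-HA replicate 1 correlated at 0.817 to 0.873 with the others, which correlated at 0.962 to 0.989 among themselves, so this array stands apart and values that rest on it are given with and without it. It was the highest or lowest of the 6 arrays for 15 of the 28 tested channel probes (53.6%, against 69.3% of all tested probes). All arrays came from 1 chip and each group took neighbouring places on it, so place and treatment cannot be told apart. Of 8 cardiomyocyte marker genes with a probe, 6 were detected on all 6 arrays, Myl7 on both untreated arrays and o-HA replicate 2 only, and Ryr2 on 0. Their intensities summed to 6661 and 9174 in untreated cells, to 5416 and 6234 under o-HA, and to 3367 and 11620 under n-HA. All 4 fibroblast genes, both leukocyte genes and all 4 neuronal or glial genes were at 0 arrays, as were 2 of 3 endothelial genes, while the smooth muscle genes Acta2 and Tagln were detected on all 6 arrays and Myh11 on 0. The smooth muscle sum ran from 4754 to 6729 untreated, from 4199 to 5726 under o-HA and from 3300 to 9725 under n-HA.

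Most channel probes were not above background. Detection on both untreated arrays was found for 22 of the 191 probes (11.5%), of 19 genes, beside 17.8% of all probes. All 6 arrays detected 15 channel probes (7.85%) of 14 genes, beside 11.7% of all probes, and 0 arrays detected 148 (77.5%), beside 66.4%. For 86 of the 123 genes, no probe was detected on any array. These shares are descriptions of the probes on this array, and a probe not above background gives only an upper bound on its RNA. Intensities of the 148 probes ran from 42.4 to 72.4, and the lowest intensity of a detected probe on each array was 70.2 to 73.0.

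**Figure D1:**
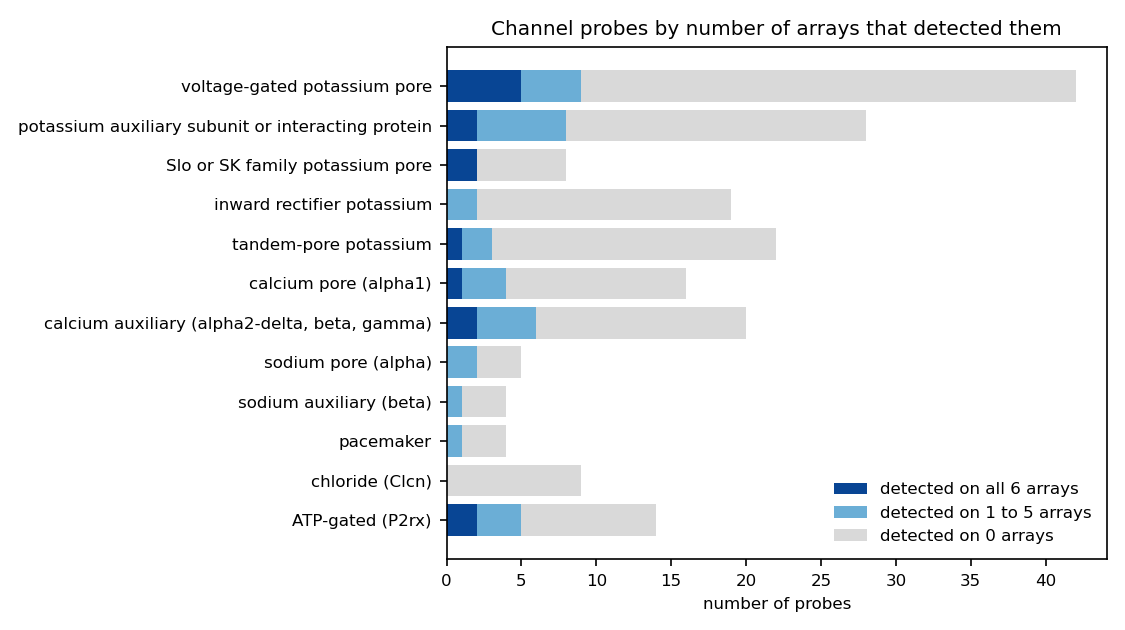
Number of channel probes (horizontal axis) in each of 12 families, split by whether all 6, 1 to 5 or 0 arrays detected them at a detection p under 0.05. In each of the 12 families more probes were detected on 0 arrays than on all 6, and all 9 Clcn probes were at 0.

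By family, voltage-gated potassium pores gave 5 probes detected on all 6 arrays out of 42, calcium pores 1 of 16, calcium auxiliary subunits 2 of 20 and ATP-gated channels 2 of 14. Inward rectifiers, which hold the resting potential of muscle, gave 0 of 19 on all arrays and 17 on none, with Kcnj15 and Kcnj16 at 1 array each. The 9 chloride channel probes of 6 Clcn genes were not detected. Among 32 channels of atrial or ventricular muscle listed for this purpose, 25 had a probe here, 7 were detected on all 6 arrays (Kcnq1, Kcne1, Kcnh2, Kcnk3, Cacna1h, P2rx4 and P2rx7) and 13 on 0 arrays. The 13 were the inward rectifiers Kcnj2, Kcnj3, Kcnj5, Kcnj8 and Kcnj12, the transient outward genes Kcnd2, Kcnd3 and Kcnip2, the atrial delayed rectifier Kcna5, the calcium-activated Kcnn2, the pacemaker Hcn2, the T-type calcium pore Cacna1g and the chloride channel Clcn3.

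The question of the comparisons is whether hyaluronan of either size changed the RNA of these genes. No channel probe passed an adjusted p of 0.05 in limma's moderated test in either comparison, and nor did any of the 6194 probes (0% called in both). With o-HA, 0 channel probes were higher and 1 lower at an unadjusted p under 0.05 (3.57% of 28), beside 0.549% and 0.710% of all tested probes. With n-HA, 2 were higher (7.14%) and 3 lower (10.7%), beside 9.32% and 12.5% of all, so the share among channels was near that of all probes. The lowest adjusted p was 1 with o-HA, and with n-HA it was 0.159 among channels and 0.138 among all probes. Median log2 fold changes were -0.01 with o-HA (12 higher, 16 lower) and 0.10 with n-HA (15 higher, 13 lower), beside 0.0017 and -0.0096 over all tested probes. In bulk RNA a lower signal from fewer cells that express a gene and from less RNA per cell cannot be told apart.

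Both arrays of a group lay outside the range of the untreated arrays for many probes. With o-HA, 3 channel probes lay above (10.7%, beside 21.7% of all probes) and 10 below (35.7%, beside 22.0%). With n-HA, 10 lay above (35.7%, beside 23.8%) and 8 below (28.6%, beside 30.5%).

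**Figure D2:**
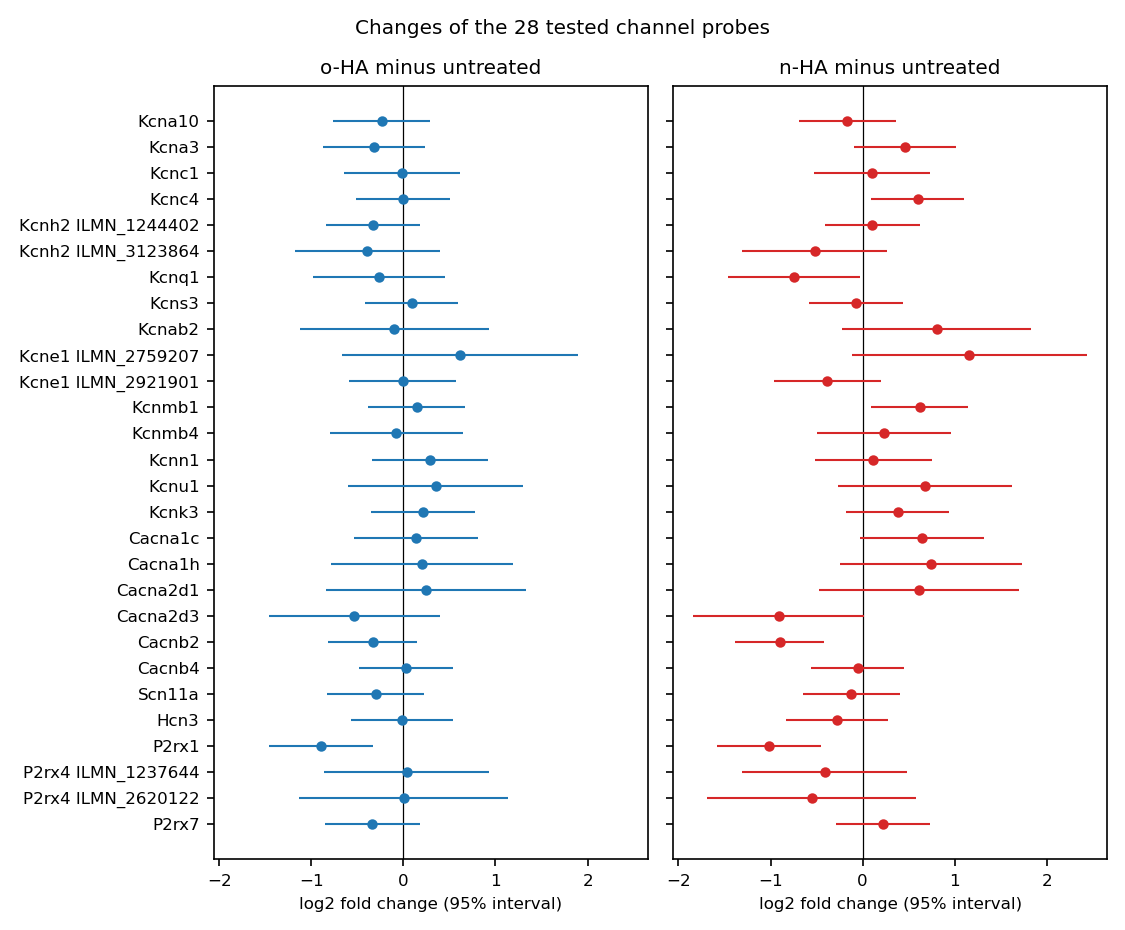
Log2 fold change against untreated cells (horizontal axis) with its 95% interval from limma, for the 28 tested channel probes, with o-HA at left and n-HA at right. P2rx1 is the only probe whose interval lies wholly below 0 in both panels, and a difference from a group with 0 detecting arrays is only a bound.

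Without n-HA replicate 1, 27 channel probes remained in the test, out of 5893, and the remaining n-HA array was assumed to vary like the other groups. With o-HA, 1 channel probe, P2rx1, was then called lower (3.70%, beside 0.238% of all probes) and 0 higher (beside 0.170%). With n-HA, Cacna1c was called higher (3.70%, beside 7.36%) and Cacnb2 and P2rx1 lower (7.41%, beside 9.77%). Without n-HA replicate 2, by contrast, 16 of 27 channel probes were called with n-HA beside 3221 of 5959 probes in all. Leaving the arrays without normalization moved the n-HA median of all probes to -0.35, so n-HA changes on that scale are to be read against this shift.

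ATP-gated channels gave the lowest p with o-HA. P2rx1 encodes a fast-desensitising ATP receptor known from smooth muscle and platelets. Its probe ILMN_2932453 read 5.60 and 5.52 (log2 intensity) on the untreated arrays, 4.86 and 4.48 under o-HA, and 4.64 and 4.46 under n-HA. All 4 treated arrays lay below both untreated arrays. Both untreated arrays and o-HA replicate 1 detected the probe, the other 3 arrays did not. The log2 fold change with o-HA was -0.90 (SE 0.23, 95% interval -1.46 to -0.33, adjusted p = 1 in limma, unadjusted p = 0.00786). Since 0 n-HA arrays detected it, the n-HA mean lay at least 1.65-fold below the untreated mean, a bound that leaves out the spread between arrays. The fitted log2 fold change with n-HA was -1.01 (SE 0.23, adjusted p = 0.162 in limma), which did not pass the adjusted threshold. Without n-HA replicate 1 the changes were -0.94 with o-HA (adjusted p = 0.0439) and -1.16 with n-HA (adjusted p = 0.00536). They kept their sign in 16 of 16 alternative settings in both comparisons, from -1.08 to -0.43 with o-HA and from -1.25 to -0.48 with n-HA. Since all 4 treated arrays lay below both untreated arrays, these settings could hardly turn the sign, so the count adds little. The second P2rx1 probe, ILMN_2932455, was detected on n-HA replicate 1 only, at 5.45, and lay between 4.27 and 4.58 on the other arrays, so the pair of probes disagreed on that array.

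On the deposited scale, before any correction, the first P2rx1 probe read 109.6 and 89.1 untreated, 75.2 and 65.4 under o-HA, and 69.1 and 62.4 under n-HA, with a standard error over beads of 3.05 to 7.53. The treated arrays were thus close to the lowest intensity that counted as detected. P2rx4, a slowly desensitising ATP receptor, was measured by a pair of probes. ILMN_1237644 read 5.97 and 5.94 untreated, 6.11 and 5.87 under o-HA, and 5.01 and 6.07 under n-HA, and ILMN_2620122 read 5.88 and 5.83, 6.02 and 5.69, and 4.58 and 6.02. In both probes n-HA replicate 1 was the lowest array and the others overlapped. Their log2 fold changes were 0.04 (SE 0.37) and 0.00188 (SE 0.47) with o-HA, and -0.41 (SE 0.37) and -0.55 (SE 0.47) with n-HA, and without n-HA replicate 1 the n-HA values were 0.12 and 0.17. P2rx7, a receptor known from macrophages that ATP opens at high concentration, read 5.36 and 5.39 untreated, 5.10 and 4.97 under o-HA, and 5.48 and 5.70 under n-HA. Both o-HA arrays lay below and both n-HA arrays above the untreated ones, by log2 fold changes of -0.34 and 0.22 (SE 0.21 in both, adjusted p = 1 and 0.538), and the n-HA value turned to -0.37 without normalization.

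**Figure D3:**
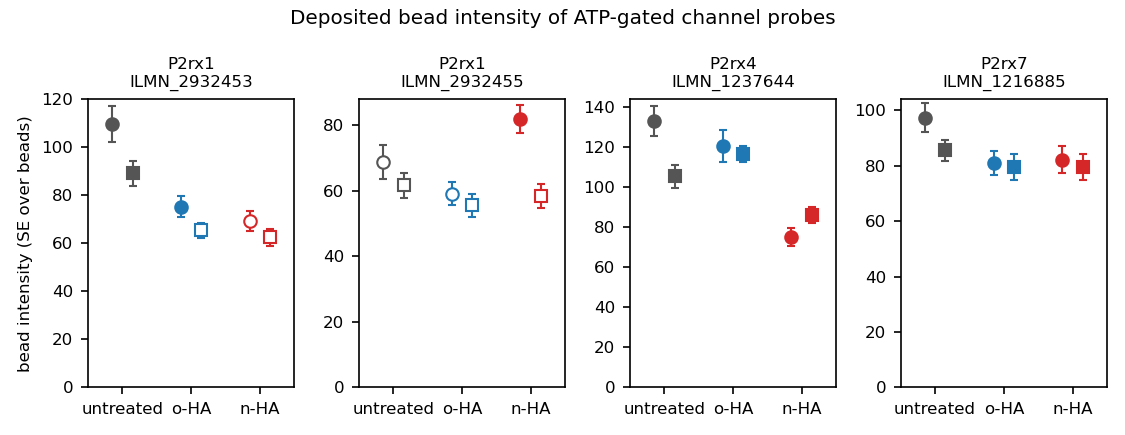
Deposited bead intensity (vertical axis, from 0) of 4 ATP-gated channel probes on each array, with circles for replicate 1, squares for replicate 2, filled symbols for detection p under 0.05 and bars for the standard error over beads. The first P2rx1 probe reads 109.6 and 89.1 untreated and 75.2 or less on the treated arrays, and the second is filled on n-HA replicate 1 only.

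The smallest p among channel probes with n-HA was that of a calcium channel gene. Cacnb2 encodes the main cardiac beta subunit, which brings the L-type pore to the membrane. Its probe ILMN_2606862 read 5.17 and 5.22 untreated, 4.90 and 4.83 under o-HA, and 4.28 and 4.31 under n-HA, so that the 3 groups did not overlap. Both n-HA arrays failed to detect it and the other 4 detected it. Cacnb2 was at least 1.28-fold lower with n-HA (fitted log2 fold change -0.90, SE 0.20, adjusted p = 0.159 in limma), and the o-HA log2 fold change was -0.34 (SE 0.20, adjusted p = 1). Without n-HA replicate 1 the n-HA value was -0.92 (adjusted p = 0.0106). The other Cacnb2 probe was detected on 0 arrays. Cacnb4, another beta subunit, was detected on all 6 arrays between 5.31 and 5.54 with overlapping groups.

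Cacna1c, the L-type pore of working heart muscle, was near the background throughout. Its probes other than ILMN_2682982 were each detected on 0 arrays. ILMN_2682982, of 4 for the gene, read 4.30 and 4.69 untreated, 4.82 and 4.45 under o-HA, and 4.93 and 5.34 under n-HA. It was detected on o-HA replicate 1 and both n-HA arrays only, and it was at least 1.33-fold higher with n-HA (fitted log2 fold change 0.64, SE 0.28, adjusted p = 0.239, and 0.89 with adjusted p = 0.0235 without n-HA replicate 1). Cacna1h, a T-type pore that opens at low voltage, read 8.17 and 8.14 untreated, 8.09 and 8.62 under o-HA, and 9.46 and 8.33 under n-HA. Its n-HA log2 fold change of 0.74 (SE 0.41, adjusted p = 0.313) was 0.18 without n-HA replicate 1 and -0.17 without normalization. Cacna1d, an L-type pore of the sinus node and atrium, was detected on 1 untreated array.

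Of the alpha2-delta subunits, which sit outside the membrane beside the pore, a pair was tested. Cacna2d3 read 6.73 and 6.95 untreated, 6.21 and 6.39 under o-HA, and 5.37 and 6.48 under n-HA. All 4 treated arrays lay below the untreated ones, with log2 fold changes of -0.54 (SE 0.38, adjusted p = 1) with o-HA and -0.91 (SE 0.38, adjusted p = 0.232) with n-HA, and the n-HA value was -0.36 without n-HA replicate 1. The o-HA SE again carries the gap between the n-HA arrays, and the o-HA value was also -0.54 without n-HA replicate 1. Cacna2d1, the subunit known from heart muscle, was detected on o-HA replicate 2 and n-HA replicate 1 only, with 4.38 and 4.61 untreated, 4.58 and 4.90 under o-HA, and 5.78 and 4.43 under n-HA. Its fitted n-HA log2 fold change of 0.61 (SE 0.45, adjusted p = 0.427) rested on n-HA replicate 1, the array that stands apart. The probe was not detected on n-HA replicate 2, which lay between the untreated arrays, so no lower bound is given for the group. Without n-HA replicate 1 only o-HA replicate 2 detected the probe, so it was not tested there.

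Of the delayed rectifier genes, which end the action potential, Kcnh2 and Kcnq1 with its partner Kcne1 had probes detected on all 6 arrays, while the Kcna5 probe was detected on 0. Kcnh2, the pore of the rapid delayed rectifier, was detected on all 6 arrays by a pair of its 3 probes. ILMN_1244402 read 11.76 and 11.92 untreated, 11.53 and 11.49 under o-HA, and 11.84 and 12.05 under n-HA. ILMN_3123864 read 10.89 and 10.89 untreated, 10.48 and 10.51 under o-HA, and 9.92 and 10.81 under n-HA. In both probes the o-HA arrays lay below the untreated arrays, by log2 fold changes of -0.33 (SE 0.21) and -0.39 (SE 0.32), and neither passed the adjustment (adjusted p = 1 in both). With n-HA the pair differed, at 0.11 (SE 0.21, adjusted p = 0.778) and -0.52 (SE 0.32, adjusted p = 0.359), and the second was -0.08 without n-HA replicate 1. These n-HA values moved with the scaling. On the deposited scale ILMN_3123864 read 2692 and 2051 untreated and 814 and 926 with n-HA, and without normalization its log2 fold change was -1.49 (adjusted p = 0.0143) and that of ILMN_1244402 was -0.55 (adjusted p = 0.214). The third Kcnh2 probe was detected on o-HA replicate 1 only.

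Kcnq1 is the pore of the slow delayed rectifier and Kcne1 its accessory subunit. Kcnq1 read 6.54 and 6.58 untreated, 5.91 and 6.68 under o-HA, and 5.82 and 5.80 under n-HA. Both n-HA arrays lay below both untreated arrays, with a log2 fold change of -0.75 (SE 0.29, adjusted p = 0.217 in limma), while the o-HA arrays lay on both sides (-0.26, SE 0.29). Kcne1 (ILMN_2759207) read 6.49 and 6.23 untreated, 6.94 and 7.02 under o-HA, and 8.37 and 6.68 under n-HA. All 4 treated arrays lay above the untreated ones, by 0.62 with o-HA (SE 0.53, adjusted p = 1) and 1.16 with n-HA (SE 0.53, adjusted p = 0.25), and the n-HA value was 0.32 without n-HA replicate 1. The gap between the n-HA arrays enters the o-HA SE too, and the o-HA value was also 0.62 without n-HA replicate 1. The other tested Kcne1 probe, ILMN_2921901, near the background, read 4.75 and 4.90, 4.65 and 4.98, and 4.59 and 4.30, and it was not detected with n-HA.

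**Figure D4:**
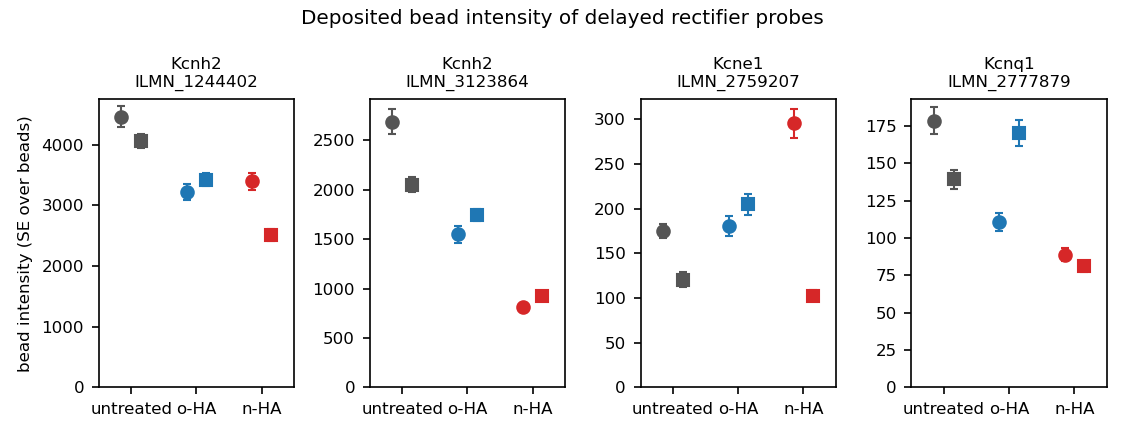
Deposited bead intensity (vertical axis, from 0) of 4 delayed rectifier probes on each array, with circles for replicate 1, squares for replicate 2 and bars for the standard error over beads, all detected. ILMN_3123864 of Kcnh2 lies at 814 and 926 with n-HA against 2692 and 2051 untreated on this scale, which no normalization has changed.

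The other voltage-gated potassium pores that were tested had o-HA log2 fold changes from -0.32 to 0.09. Kcna3, a Shaker-type pore known from lymphocytes, read 5.40 and 5.66 untreated, 5.24 and 5.18 under o-HA, and 5.83 and 6.14 under n-HA, and its 3 groups did not overlap. The log2 fold changes were -0.32 (SE 0.23, adjusted p = 1) with o-HA and 0.45 (SE 0.23, adjusted p = 0.283) with n-HA, the latter -0.25 without normalization. Kcnc4, a Shaw-type pore of fast-spiking neurons, read 4.58 and 4.79 untreated, 4.73 and 4.63 under o-HA, and 5.27 and 5.29 under n-HA, and was detected on untreated replicate 2 and both n-HA arrays. Its n-HA log2 fold change was 0.60 (SE 0.21, adjusted p = 0.193). Kcna10 lay between 4.76 and 5.21 on all arrays, and Kcnc1 and Kcns3 were each detected on 2 arrays.

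Among auxiliary subunits of potassium channels, Kcnmb1, the beta subunit of the large-conductance calcium-activated channel of smooth muscle, read 4.72 and 4.65 untreated, 4.98 and 4.68 under o-HA, and 5.34 and 5.28 under n-HA. Both n-HA arrays lay above the untreated ones (log2 fold change 0.62, SE 0.22, adjusted p = 0.193). The part of the smooth muscle genes given above in this value and in that of P2rx1 was not tested. Kcnab2, a beta subunit of Shaker-type channels, read 7.42 and 7.36 untreated, 7.33 and 7.26 under o-HA, and 8.85 and 7.55 under n-HA. Its n-HA log2 fold change of 0.80 (SE 0.42, adjusted p = 0.299) was 0.15 without n-HA replicate 1 and -0.13 without normalization.

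**Figure D5:**
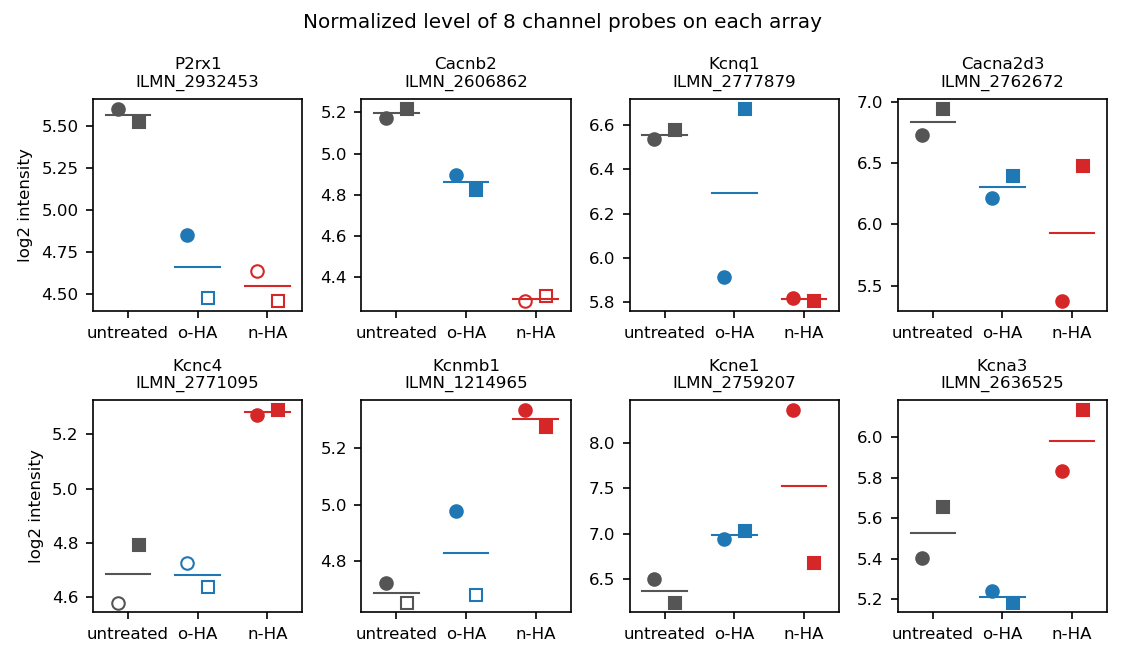
Normalized log2 intensity (vertical axis, a separate scale for each probe, not starting at 0) of 8 channel probes on each array, with circles for replicate 1, squares for replicate 2, filled symbols for detection p under 0.05 and lines for group means. P2rx1 and Cacnb2 are lower and open with n-HA, while for Kcne1 and Cacna2d3 the n-HA arrays lie far apart.

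The remaining tested potassium pores were Kcnk3, Kcnn1 and Kcnu1. Kcnk3, an acid-sensitive tandem-pore channel that carries a resting current in atrial cells, read 5.97 and 6.05 untreated, 6.09 and 6.36 under o-HA, and 6.54 and 6.23 under n-HA. All 4 treated arrays lay above the untreated ones, by log2 fold changes of 0.22 (SE 0.23, adjusted p = 1) and 0.38 (SE 0.23, adjusted p = 0.351), the latter 0.23 without n-HA replicate 1 and -0.49 without normalization. Kcnn1, a small-conductance calcium-activated channel, read 5.15 and 4.85, 5.55 and 5.03, and 5.12 and 5.12, with overlapping groups. Kcnu1, a channel known from sperm, read 4.86 and 4.74, 5.20 and 5.10, and 6.06 and 4.89, and its n-HA log2 fold change of 0.67 (SE 0.39, adjusted p = 0.331) was 0.10 without n-HA replicate 1.

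Sodium and pacemaker channels were near the background. Scn11a, a sodium channel of pain-sensing neurons, was detected on both untreated arrays and on 0 treated arrays, with 4.74 and 4.92 untreated, 4.62 and 4.43 under o-HA, and 4.63 and 4.78 under n-HA. The o-HA mean lay at least 1.07-fold below the untreated mean, without regard to the spread between arrays (fitted log2 fold change -0.30, SE 0.21, adjusted p = 1). The n-HA arrays overlapped the untreated ones. Scn8a was detected on 1 array and so was the beta subunit Scn3b. Hcn3, the pacemaker gene that was tested and one named after its values were seen, read 5.19 and 5.05 untreated, 4.92 and 5.29 under o-HA, and 4.84 and 4.84 under n-HA (log2 fold changes -0.02 and -0.28, SE 0.23 in both).

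Genes that work beside these channels were taken from a list of 83. The list included ion pumps and exchangers, gap junction proteins, G proteins, channel regulators and ion channels of other families, such as Orai1, Itpr2 and Vdac1. Of 70 with a probe, 31 genes with 37 probes were tested, and 0 passed the adjusted threshold in either comparison. At an unadjusted p under 0.05, limma gave 0 of the 37 with o-HA, beside 0.549% of all tested probes higher and 0.710% lower. With n-HA it gave 2 of the 37 higher and 6 of the 37 lower, beside 9.32% and 12.5% of all tested probes. With o-HA 9 probes were higher and 28 lower, at a median log2 fold change of -0.17, and with n-HA 16 were higher and 21 lower, at -0.10, beside the medians of all probes given above. Rrad, a small GTPase that inhibits L-type channels through their beta subunit, had the lowest p of the list with o-HA (log2 fold change -0.87, SE 0.40, adjusted p = 1, and -0.86 with adjusted p = 0.0439 without n-HA replicate 1). With n-HA, Slc8a1, the sodium-calcium exchanger of heart muscle, had a log2 fold change of 1.02 (SE 0.27, adjusted p = 0.176 in limma). It was 0.73 without n-HA replicate 1 and 0.14 without normalization. Atp1b1, a sodium pump subunit, was at -1.10 (SE 0.33, adjusted p = 0.176), at -0.69 without that array and at -1.90 without normalization. Gja1, the main ventricular gap junction gene, was at 0.36 with o-HA and 0.79 with n-HA (SE 0.24 in both). The n-HA value was 0.95 without n-HA replicate 1 and 0.26 without normalization. Its probe was near the background, with deposited intensities of 81.3 and 67.5 untreated and 82.0 and 79.3 with n-HA, and untreated replicate 2 did not detect it. Values without normalization are to be read against the n-HA shift given above. With n-HA the Pkd1 mean lay at least 1.99-fold below the untreated mean (fitted log2 fold change -1.17, 95% interval -1.71 to -0.64, adjusted p = 0.146 in limma). For Fxyd1, a regulator of the sodium pump, this bound was 1.35-fold (fitted -0.82, interval -1.39 to -0.24, adjusted p = 0.176). Without n-HA replicate 1 the fitted values were -1.30 and -0.89, and without normalization they were -1.44 and -0.98.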

How the data were processed

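RNA from HL-1 cells was hybridised to 6 arrays of an Illumina MouseRef-8 beadchip. Per the labels, the authors exported bead intensities from BeadStudio, which the submitters' processing notes give as version 3.3. The deposited non-normalized file gives each probe's mean bead intensity, its bead standard error and bead number, and a detection p-value. The authors' normalized intensity table ranks probes within each array as the intensities do, has array medians of 1.69 and 38.1% of values below 0, and served as an alternative. Its centring is not stated in the sources used here.

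Intensities were background-corrected, quantile normalized and put on the log2 scale with neqc (offset 16) in limma 3.58.1 under R 4.3.3. Where at least 2 arrays detected a probe (detection p-value below 0.05), it was fitted with group means on all 6 arrays and empirical Bayes moderation (degrees of freedom 3 residual, 3.145 prior). Adjustment was by Benjamini-Hochberg over all 6194 probes, and 0.05 was the threshold. The number of arrays limits the precision. "At least" bounds compare the brighter group's mean log2 value with the dimmer group's mean of, on each array, the higher of the probe's value and the lowest detected signal. The procedure was checked on simulated data, drawn with the same spread per probe on every array. That check does not cover a group that varies more than the others, as the n-HA arrays did. Alternatives were the authors' table, cyclic loess or no normalization, an offset of 50, uncorrected background, other detection filters, array weights, a replicate block and leaving out each array.

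Of 25697 probes, 23978 had 1 gene symbol, 0 several and 1719 none, and columns that could not be assigned to a sample numbered 0. Gene symbols are those of the file. Named were probes past the threshold, the 10 of smallest p in each comparison, those detected on all 6 arrays, and 32 listed channels of heart muscle, while of the other genes beside the channels the 5 of smallest p were considered. Members and lists were chosen with earlier results of these data known.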

Additional observations from a re-analysis of the deposited data

How the results depend on the processing

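With o-HA, 0 channel probes passed the threshold in the reported limma fit, and 1, P2rx1 (lower, adjusted p = 0.0334), did with array weights. These weights were 0.22 for both n-HA arrays and 2.13 for each untreated and o-HA array. With 2 arrays a group they follow the spread within a group and cannot tell which of the 2 arrays stands apart. Without n-HA replicate 1 the log2 fold change of P2rx1 with o-HA was -0.94. With n-HA, the count rose from 0 to 6 without normalization between arrays, all lower (Cacna2d3, Cacnb2, Kcnh2, Kcnq1, P2rx1 and P2rx4), where 1472 of all probes were called and their median was -0.349. Leaving out 1 array at a time gave 0 to 16 calls with n-HA, with 3 without n-HA replicate 1 and 16 without n-HA replicate 2, where the lone n-HA array was assumed to vary like the other groups. The o-HA median over channel probes moved to -0.0861 with a detection p of 0.01 and ranged from -0.1688 to -0.0073 with 1 array left out. The n-HA median moved to -0.3127 without normalization, 0.0483 without background correction, 0.0151 without a filter and 0.0248 with a detection p of 0.01, and ranged from 0.0304 to 0.1845 with 1 array left out. The cause of these shifts was not tested. A replicate block gave 0 calls in both comparisons (lowest adjusted p over channel probes 1 with o-HA and 0.207 with n-HA), and same-numbered arrays deviated with correlations of -0.114, 0.153 and -0.0449, so the numbers do not pair the arrays. A detection p of 0.01 left 16 of 22 channel probes detected on both untreated arrays. Most channel probes lay at the background, which limits what these arrays could detect.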
